A study of Homo sapiens with 5 samples.

Results

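The genes described here are LIMK1, ENPP5, BTG3, FYCO1, F3, CYBRD1 and PRR15, 7 of the 57773 gene identifiers in the deposited table. They were chosen by their low values in cells given miR-17, as measured in these same libraries, and each name matched 1 row. The decreases against the control in the miR-17 libraries are therefore a description of the choice and support nothing by themselves. The cells were HCT116, a human colorectal carcinoma line, in a derivative that the series calls a Dicer knockout. All 5 libraries share that background. Dicer cuts mature microRNAs out of their hairpin precursors, so the transfected strands were studied in cells meant to lack most of their own. The transfected strands were a negative control, unmethylated let-7a (let7a-native), methylated let-7a (let7a-19A), unmethylated miR-17 (miR17-native) and methylated miR-17 (miR17-13A), with 1 library each. No difference below has a replicate check, and no test was possible. The labels do not say what the negative control was, which methyl group was used, the dose or the time, nor whether the line is 1 clone.

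A microRNA guides an Argonaute protein to messenger RNAs that pair with its seed, the bases from position 2 to position 8, most often in the 3′ untranslated region (3′ UTR). The bound complex recruits deadenylases, and the message is translated less and degraded sooner. miR-17 belongs to a family known for promoting proliferation in colorectal and other cancers, and let-7a to a family known for restraining growth and stem-like programmes. The study's title asks how methylated microRNAs act on the degradation of their targets. The 7 genes form no pathway of their own: they cover actin control, vesicle transport, coagulation, iron reduction and growth arrest.

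The seeds and the matching stretches of the 7 genes are shown first. The stated rule names expression values only, and whether sequence also guided the pick among the many lowered genes is not known. The mature strands, from RefSeq (GRCh38.p14), are printed 5′ to 3′ with the seed in capitals. miR-17 is encoded at chr13:91350618-91350640 on the plus strand. Both label numbers fall on an adenosine, at position 13 of miR-17 and position 19 of let-7a, outside the seeds.
hsa-miR-17-5p: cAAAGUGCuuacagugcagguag
hsa-let-7a-5p: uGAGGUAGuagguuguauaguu

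An 8mer match reads GCACTTTA in the message, a 7mer-m8 match reads GCACTTT, a 7mer-A1 match reads CACTTTA and a 6mer match reads CACTTT. All 7 genes held at least 1 8mer or 7mer match in an annotated 3′ UTR, against 33.4% of the 12118 genes tested that have one. An 8mer was present in 6 of 7, against 5.87% of genes. Genes lowered like these held matches more often than all genes: of the 103 other searched genes at least 2-fold lower in both miR-17 libraries, 68 (66.0%) had a match and 34 an 8mer. A let-7a match (CTACCTC or TACCTCA) was present in 0 of 7, against 19.3%. These shares describe the annotation (GENCODE release 29), searched on the sense strand, and a match is not proof of a functioning site. The lines below give the matches that carry the comparison, 30 bases each with the match in capitals, with GRCh38 coordinates from that annotation.
LIMK1, 7mer-A1, chr7:74121938-74121967, plus strand: tttttttgtttctttcttaaagcCACTTTA
LIMK1, 7mer-m8, chr7:74122355-74122384, plus strand: aaaactgtgaagctttctcagtGCACTTTg
ENPP5, first 8mer, chr6:46160996-46161025, minus strand: tatgtaaagtaccttatgtattGCACTTTA
ENPP5, second 8mer, chr6:46160954-46160983, minus strand: gatgggtactttaatttgaaatGCACTTTA
BTG3, 8mer, chr21:17593919-17593948, minus strand: taatctttcttaaaaaatatatGCACTTTA
FYCO1, 8mer, chr3:45918139-45918168, minus strand: ggaaggctcaacatttggaattGCACTTTA
F3, 8mer, chr1:94529556-94529585, minus strand: ttcctaatatgctttacaatctGCACTTTA
CYBRD1, 8mer, chr2:171555675-171555704, plus strand: tatgctccaaacactcctctaaGCACTTTA
PRR15, 8mer, chr7:29567112-29567141, plus strand: ctgtttttaatgcctgagaaatGCACTTTA

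The 7 genes held 14 such matches in all, of which 7 were 8mers, 6 were 7mer-m8 and 1 was 7mer-A1, plus 4 6mers. LIMK1 was the 1 gene without an 8mer. ENPP5 had its pair of 8mers 42 bases apart, starting 323 and 365 bases after the stop codon. CYBRD1 had 4 matches, the first pair 77 bases apart and the last pair 95 bases apart. FYCO1 had 3 matches near the end of its longest 3′ UTR, with gaps of 99 and 160 bases between their starts. BTG3, F3 and PRR15 had 1 match each. In ENPP5, CYBRD1 and FYCO1, 2 matches lay within 100 bases of each other, which 124 (1.02%) of all searched genes showed. At least 2 matches, which such a pair needs, were held by 1547 searched genes (12.8%) and by 4 of the 7.

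The 3′ UTRs themselves differed widely among the 7 genes. The longest annotated 3′ UTR ran from 440 bases in BTG3 to 3866 bases in FYCO1, with a median of 1240 against 1340 over all searched genes. Its GC content ran from 28.9% in BTG3 to 59.4% in LIMK1, with a median of 37.6% against 43.3%. Within 30 bases on each side of the 14 matches, A and U made up 55.0% to 85.0%, with a median of 63.3% against 55.0% over 6658 matches in all searched genes. The sequence CACT, complementary to miR-17 positions 13 to 16 and so including the labelled adenosine, lay in the 22 bases before 2 of the 14 matches, 1 in FYCO1 and 1 in CYBRD1. Over all matches the share was 6.86%. Not every annotated 3′ UTR carries a match: 2 of 3 do in LIMK1, 2 of 3 in CYBRD1 and 3 of 4 in FYCO1. The deposited values are per gene, so they do not tell which 3′ UTR form was measured.

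**Figure D1:**
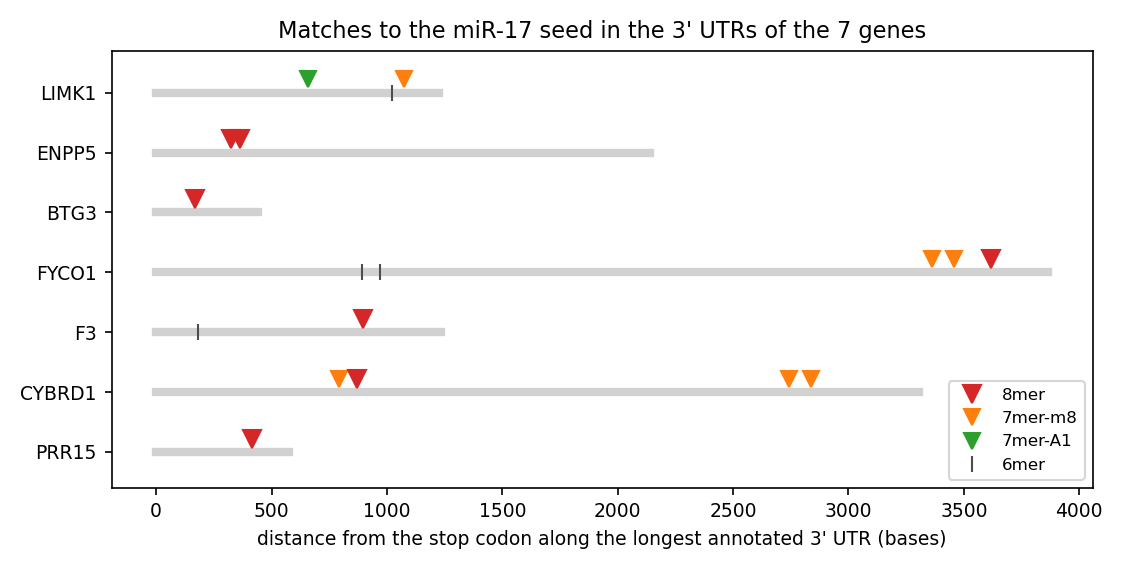
Matches to the miR-17 seed along the longest annotated 3′ UTR of each gene, drawn as a grey bar to scale from the stop codon. Triangles mark 8mer and 7mer matches and ticks mark 6mers; BTG3 and PRR15 have 1 8mer in 3′ UTRs of 440 and 576 bases, and the 3 triangles of FYCO1 lie near the end of 3866 bases.

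Levels are given in TPM, a length-scaled share of the library, as deposited with 1 decimal. Read depth is unknown, so no interval can be given. Differences are of log2(TPM + 1), first library minus second, and a change of TPM + 1 by a factor of 2 or more, called at least 2-fold, serves as a rule of size. Mitochondrial transcripts held 9.36% to 12.6% of the TPM, with the control highest and methylated miR-17 lowest, and ribosomal protein genes held 14.2% to 17.6%, with the control lowest and methylated miR-17 highest. Their part in the differences below was not tested. Of 12 epithelial and colon marker genes, 9 were at 1 TPM or more in every library, and CDX1, VIL1 and CEACAM5, which mark differentiated colon epithelium, were listed at 0 in every library. The epithelial markers summed to between 7983 and 9608 TPM, against at most 17.2 TPM for 7 fibroblast, 1.2 TPM for 3 endothelial and 5.5 TPM for 6 blood genes. PTPRC and HBB, defining for blood cells, were listed at 0 in every library. DICER1 itself was listed between 11.2 and 15.9 TPM, and no library with intact Dicer was analysed here to compare it with.

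LIMK1 phosphorylates and so inactivates cofilin, the protein that severs actin filaments. It had 60.7 TPM in the control, 61.9 and 60.3 with the unmethylated and methylated let-7a strands, and 22.3 and 19.5 with the unmethylated and methylated miR-17 strands. The 3 libraries without miR-17 lay close together, and both miR-17 libraries were far below them. Its TPM + 1 was 2.65-fold lower with native and 3.01-fold lower with methylated miR-17 than in the control.

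FYCO1 links autophagosomes and late endosomes to kinesin motors. It was listed at 21.7 TPM in the control, 22 and 20.4 with the unmethylated and methylated let-7a strands, and 9.9 and 8.2 with the unmethylated and methylated miR-17 strands. The 3 libraries without miR-17 again lay close together, above both miR-17 libraries. Among the 7 genes it had the smallest decrease with native miR-17, a log2 difference of -1.06.

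F3 is tissue factor, the cell-surface receptor that starts coagulation. It had 47.9 TPM in the control, 46.2 and 45.0 with the unmethylated and methylated let-7a strands, and 16 and 17.5 with the unmethylated and methylated miR-17 strands. The miR-17 libraries stood at 33.4% and 36.5% of the control. ENPP5 is a membrane protein of the ectonucleotide pyrophosphatase and phosphodiesterase family. It had 28.5 TPM in the control, 31.2 and 31.4 with the unmethylated and methylated let-7a strands, and 10.7 and 9.1 with the unmethylated and methylated miR-17 strands. Here the let-7a libraries were slightly above the control, by 0.13 and 0.14 on the log2 scale.

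BTG3 belongs to the antiproliferative BTG and TOB proteins, which bind the CCR4-NOT deadenylase. Its level was 58.4 TPM in the control, 66.3 and 62.4 with the unmethylated and methylated let-7a strands, and 24.4 and 29.2 with the unmethylated and methylated miR-17 strands. It was the 1 gene of the 7 that missed the 2-fold rule in a miR-17 library, at 1.97-fold lower with the methylated form.

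CYBRD1, the ferric reductase known from the duodenal brush border, and PRR15, a proline-rich protein, showed another pattern. CYBRD1 had 32.8 TPM in the control, 24.3 and 21.9 with the unmethylated and methylated let-7a strands, and 6.8 and 7.0 with the unmethylated and methylated miR-17 strands. PRR15 had 19.5 TPM in the control, 13.1 and 15.5 with the unmethylated and methylated let-7a strands, and 5.2 and 7.9 with the unmethylated and methylated miR-17 strands. For these 2 genes the control was the highest library, and the let-7a libraries lay well below it and above the miR-17 libraries. F3 had the same order, but its let-7a libraries stood at only -0.05 and -0.09 against the control on the log2 scale. Neither CYBRD1 nor PRR15 holds an 8mer or 7mer match to let-7a.

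**Figure D2:**
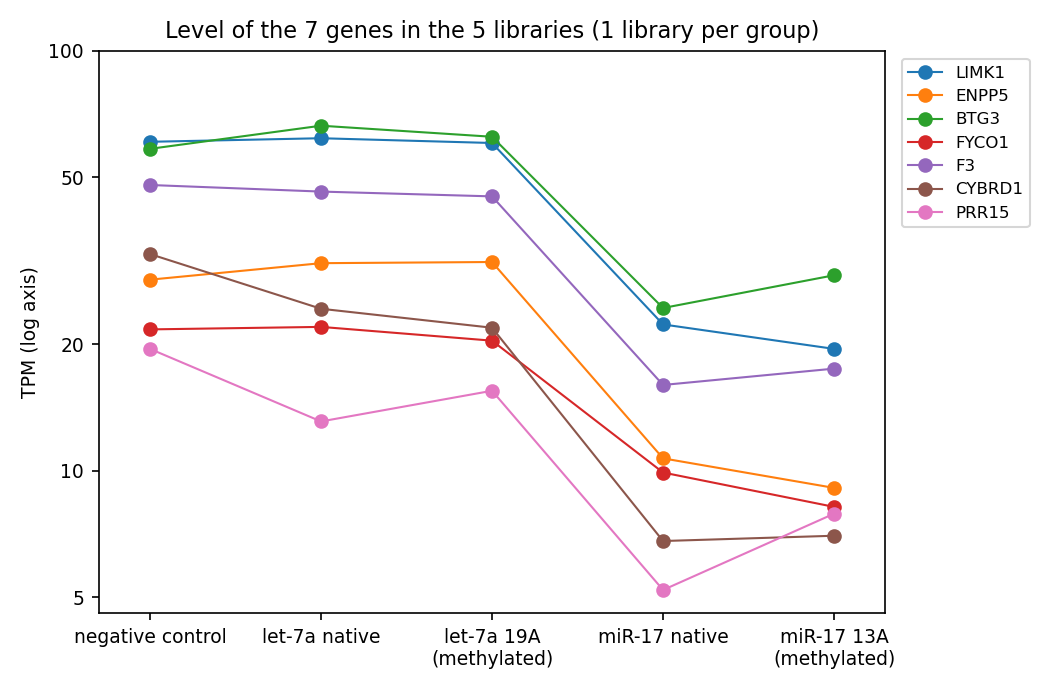
TPM of the 7 genes (log axis) in the 5 libraries, 1 point per gene and library, with lines joining the points of 1 gene as a guide. All 7 genes are lower in both miR-17 libraries than in the other 3. In both let-7a libraries CYBRD1 and PRR15 are also clearly lower than in the control, and F3 is slightly lower.

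Native miR-17 against the control asks which transcripts the unmodified strand lowers. All 7 genes were at least 2-fold lower, against 1.71% of the 14177 genes tested (averaging 1 TPM or more), a contrast that chose them. Their median log2 difference was -1.40, from -2.12 in CYBRD1 to -1.06 in FYCO1, and the median of all genes was 0.02. Methylated miR-17 against the same control asks whether the modified strand does so too. Here 6 of 7 were at least 2-fold lower, against 2.36% of all genes, with a median of -1.40 and a range from -2.08 in CYBRD1 to -0.98 in BTG3. At least 2-fold lower in both libraries were 148 genes (1.04%), 6 of them among the 7. Since many genes met this rule, the 7 are examples and not the whole group.

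The let-7a libraries give a reference that leaves out the control. Native miR-17 against native let-7a showed all 7 genes at least 2-fold lower, against 1.42% of all genes, with a median of -1.43. Methylated miR-17 against methylated let-7a showed 6 of 7, against 1.76%, with a median of -1.31. PRR15 was the gene that missed the rule here, at 7.9 against 15.5 TPM (log2 -0.89). These values share the miR-17 libraries with the choice of the genes. CYBRD1, at -2.12 against the control with native miR-17, stood at -1.70 against native let-7a, and PRR15 went from -1.73 to -1.19. The other 5 changed by at most 0.18 on the log2 scale between these references.

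With the let-7a strands against the control, 0 of the 7 genes were at least 2-fold lower, where 1.18% of all genes were so with the native and 0.98% with the methylated form. With native let-7a 3 of 7 were below the control by any amount, against 47.9% of all genes, and with methylated let-7a 5 of 7, against 56.1%. The differences ran from -0.54 in PRR15 to 0.18 in BTG3 with native let-7a, and from -0.56 in CYBRD1 to 0.14 in ENPP5 with methylated let-7a. LIMK1, FYCO1 and F3 stayed within 0.10 of the control in both. All 7 genes had their lowest non-miR-17 library above their highest miR-17 library, as did 24.0% of all genes. That gap was at least 2-fold in TPM + 1 for LIMK1, ENPP5, F3 and CYBRD1, and for 36 of all genes tested (0.254%). Both counts use the miR-17 and control values that chose the genes, so they largely restate the choice.

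**Figure D3:**
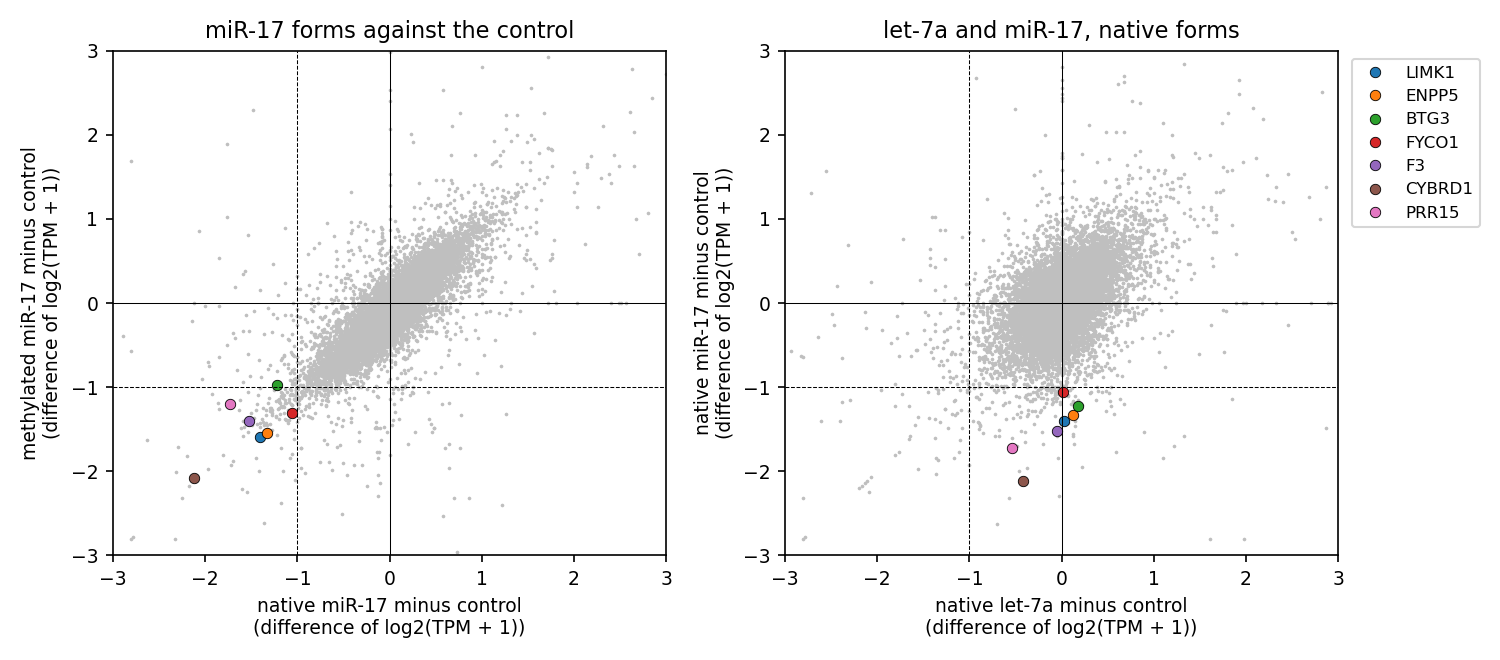
Differences of log2(TPM + 1) for all 14177 genes tested (grey) and the 7 genes (coloured), with dashed lines at 2-fold lower. The control library is shared by both axes of each panel. Left, native (horizontal) and methylated (vertical) miR-17, where the 7 genes lie between -2.12 and -0.98 on both axes. Right, native let-7a (horizontal) and native miR-17 (vertical), where they lie between -0.54 and 0.18 with native let-7a. Outside the axes are 15 genes on the left and 24 on the right.

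Methylated against native miR-17 addresses the methyl group itself. None of the 7 genes differed by 2-fold, in either direction, against 0.973% of all genes for the lower and 0.663% for the higher direction of the methylated strand. The genes were chosen for low values with miR-17 in both forms, so a wide difference between the forms was unlikely from the outset. At shares this small, 0 of 7 is also unremarkable. LIMK1, ENPP5 and FYCO1 were lower with the methylated strand, by -0.18, -0.21 and -0.24 on the log2 scale. BTG3, F3, CYBRD1 and PRR15 were higher, by 0.25, 0.12, 0.04 and 0.52. Lower by any amount were thus 3 of 7, against 69.0% of all genes. The median of the 7 was 0.04 and that of all genes -0.09. With the libraries rescaled so that the typical gene is level, these became 0.12 and 0.00, and each of the 7 genes kept its direction. PRR15 had the widest difference, at 7.9 against 5.2 TPM, and is also the gene with the lowest native level. Without replicates the size of difference that 2 libraries of the same strand would show is not known.

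Apart from CYBRD1, the order of the decreases among the 7 genes did not follow the number of matches with the native strand. With the methylated strand it followed that number in part. CYBRD1, with 4 matches, had the largest decrease with both. With the native strand PRR15 (-1.73) and F3 (-1.52), with 1 8mer each, exceeded ENPP5 (-1.33), with 2 8mers. With the methylated strand ENPP5 (-1.55) exceeded F3 (-1.40) and PRR15 (-1.20). FYCO1, with 3 matches, had the smallest decrease of the 7 with the native strand, and BTG3, with 1, had it with the methylated strand. Across all searched genes a match went with a far smaller difference than these genes showed. The 8065 genes without a match had medians of 0.06 with native and -0.01 with methylated miR-17, and 0.434% of them were at least 2-fold lower in both. The 2209 genes with a single 7mer and no 8mer, which include none of the 7, had medians of -0.04 and -0.15, and 0.679% were so. The 297 genes with a single 8mer and no other match had medians of -0.31 and -0.44, and 6.06% were so, the class of BTG3, F3 and PRR15. The 414 genes with 2 or more matches including an 8mer, the class of ENPP5, FYCO1 and CYBRD1, had medians of -0.24 and -0.41, and 5.07% were so. The 1133 genes with 2 or more 7mers and no 8mer, the class of LIMK1, had medians of -0.06 and -0.19, and 1.77% were so. Among the 718 genes with the same numbers of matches as LIMK1, it had the largest decrease common to both libraries. F3, PRR15 and BTG3 ranked 2, 9 and 21 among the 297 genes with 1 8mer. These ranks, and the gap between the 7 genes and the class medians, restate the choice of the genes and are given as a description.

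Genes with a similar profile over the 5 libraries were ranked by the Euclidean distance of centred log2(TPM + 1) values to the mean profile of the 7, among genes averaging 5 TPM or more. The nearest was PRRG4, a membrane protein with a vitamin K-dependent Gla domain, at 18.0, 17.1, 18.1, 6.5 and 6.9 TPM in the order of the libraries above. Next were RNH1, the ribonuclease inhibitor (70.7 TPM in the control, 28.2 and 29.3 with the miR-17 strands), and EREG, the growth factor epiregulin (684.1 TPM, then 257.1 and 254.4). The transcription factor KLF2, the zinc exporter SLC30A1, the microtubule-binding MAPRE3, the cell-cycle inhibitor CDKN1A and the sterol oxidase MSMO1 completed the nearest 8. KLF2 had no 8mer or 7mer match, and the other 7 had between 1 and 6. EREG was also the nearest gene to LIMK1 and to ENPP5, MICA to BTG3, the kinase MINK1 to FYCO1, RNH1 to F3, RP11-298I3.5 to CYBRD1 and PFKP, the platelet-type phosphofructokinase, to PRR15. Likeness over 5 libraries is a weak measure, as all these genes share the same low pair.

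Of the 6338 genes with at least 20 TPM in the control, 83 were at least 2-fold lower in both miR-17 libraries, 5 of them among the 7 genes. PRR15, at 19.5 TPM in the control, was outside this filter, and BTG3 missed the 2-fold rule with the methylated strand. Non-members among those with the largest decrease common to both were AC006449.1, ANGPTL4, PFKP, SLC5A3_2, FUT11, SLC5A3_1 and EREG. ANGPTL4, a secreted lipase inhibitor, had 57.5 TPM in the control and 12.7 with native let-7a, so it was low outside the miR-17 libraries as well. So were SLC5A3_2 (31.2 and 9.3 TPM in the same libraries), SLC5A3_1 (31.0 and 9.6), AC006449.1 (30.9 and 13.6) and FUT11 (34.1 and 15.6). PFKP was less so (160.7 and 110.3 TPM), and EREG was not (684.1 and 758.0 TPM). SLC5A3_1 and SLC5A3_2 bear 1 symbol under 2 identifiers, and how reads were shared between them is not known. AC006449.1 was listed at 0 with native miR-17 and at 5.1 TPM with methylated miR-17, and no fold is given for it. The rule for the 7 genes had no stated threshold. BTG3, with the smallest decrease of the 7 common to both libraries, ranked 163 of all genes tested, and CYBRD1, with the largest, ranked 9.

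Family relatives of the 7 genes were listed by kinship, not by their values. For this and the following lists, the shares of all genes tested that were lower by any amount were 46.5% for native and 56.3% for methylated miR-17, close to the shares with let-7a. Of 15 relatives tested, 11 were lower and 4 higher with native miR-17, 0 of them by 2-fold, with a median of -0.07. With the methylated strand the counts were also 11 and 4, with 0 by 2-fold and a median of -0.16. With native and methylated let-7a 9 and 10 of 15 were lower. LIMK2, the second LIM kinase, had 8.8 TPM in the control and 10.9 and 11 with the miR-17 strands, and holds no 8mer or 7mer match. ENPP4, a paralogue of ENPP5, had 25.0, 28.7 and 24.1 TPM in the same libraries and no match. Among the relatives of BTG3, BTG1 had 93.5, 69.6 and 70.7 TPM, BTG2 69.4, 57.9 and 47.5 TPM, TOB1 200.5, 155.9 and 144.0 TPM, and TOB2 80.5, 77.9 and 66.2 TPM.

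RUFY2, which shares the RUN and FYVE domains of FYCO1, was the relative with the largest decrease, at 7.8 TPM in the control and 3.9 and 4.1 with the miR-17 strands, and has 2 8mers. RUFY1 (29, 26.2 and 26.6 TPM) and RUFY3 (5.4, 5.1 and 5.2 TPM) differed less. Among other cytochrome b561 proteins, CYB561 had 87.3, 85.5 and 78.0 TPM, CYB561D1 10.8, 8.9 and 8.5 TPM, CYB561D2 6.3, 8.8 and 6.5 TPM, and CYB561A3 8.5, 13.2 and 11.8 TPM. PRR15L, the relative of PRR15, had 5.2, 5.1 and 5.6 TPM. ENPP1 had 3.3, 2.8 and 2.5 TPM. The other 4 ENPP genes, BTG4 and RUFY4 were below the filter.

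LIMK1 was the 1 gene at least 2-fold lower on the list of actin and cofilin control. Of the other 24 tested, 19 were lower with native miR-17 (median -0.15) and 18 with the methylated strand (median -0.26), and 0 reached 2-fold. With native and methylated let-7a 15 and 19 of 24 were lower (medians -0.12 and -0.11). Named after their values were seen, the muscle-type cofilin CFL2 had 66.2 TPM in the control and 34.1 and 36.8 with the miR-17 strands. SSH1 and SSH2, phosphatases that act on cofilin against LIMK1, had 64.5, 35.5 and 32.2 TPM and 12.1, 6.9 and 6.2 TPM. These 3 genes each have a match, and the 7 list genes with one were all lower in both libraries, with medians of -0.73 and -0.69, against -0.10 and -0.15 for the 17 without. This split was chosen for mention after the values were seen, and the gap varied among the other lists. With native miR-17 the medians with and without a match were -0.42 and -0.19 for coagulation genes and -0.26 and -0.04 for relatives. For let-7 targets they were -0.21 and -0.08. Little gap was seen for BTG, TOB and deadenylase genes (-0.18 and -0.17), autophagosome genes (0.04 and 0.00) and iron genes (-0.07 and -0.02). The abundant cofilin CFL1, with no match, had 518.9, 628.3 and 650.7 TPM, and the GTPase RHOA 767.0, 603.7 and 642.5 TPM.

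On the list of coagulation and fibrinolysis, 14 genes besides F3 were tested, and 11 were lower in each miR-17 library (medians -0.23 and -0.37). With each let-7a strand 9 of 14 were lower (medians -0.26 and -0.17). TFPI, the inhibitor of the tissue factor pathway, was low throughout, at 4.0 TPM in the control and 3.8 and 3.0 with the miR-17 strands. The most abundant were the annexins ANXA2 (1036.8, 950.7 and 996.3 TPM) and ANXA5 (403.7, 467.1 and 470.5 TPM).

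Iron uptake and storage is the setting of CYBRD1. Of 21 other iron genes tested, 10 were lower, 10 higher and 1 level with native miR-17 (median 0.00), and 13 were lower and 8 higher with the methylated strand (median -0.10). With native and methylated let-7a 9 and 13 were lower. SLC40A1, the iron exporter ferroportin, was the 1 other gene at least 2-fold lower, at 5.7 TPM in the control and 1.9 and 1.8 with the miR-17 strands. It was also at 3.3 and 3.7 TPM with the let-7a strands, so that, as for CYBRD1, these lay between the control and the miR-17 libraries. The ferritin heavy chain FTH1 had 4021.0 TPM in the control and was higher in all other libraries, at 4962.6 and 5018.1 TPM with let-7a and 5000.6 and 5358.8 TPM with miR-17. The light chain FTL stood at 3658.2 TPM (control), 3229.2 and 3522.8 TPM with let-7a, and 4115.5 and 4433.8 TPM with miR-17.

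Of 24 genes of autophagosome and late endosome transport besides FYCO1, 12 were lower and 12 higher with native miR-17 (median 0.01), and 15 and 9 with methylated (median -0.05), with 0 by 2-fold. With native and methylated let-7a 11 and 14 were lower. RAB7A, the late endosome GTPase that FYCO1 binds, had 272.5, 279.2 and 273.6 TPM, and the LC3 relative GABARAP had 251.8, 300.6 and 314.8 TPM. Of 18 deadenylase, BTG and TOB genes besides BTG3, 14 were lower with native and 15 with methylated miR-17 (medians -0.17 and -0.26), and 0 by 2-fold. With native and methylated let-7a 15 and 16 of these 18 were lower (medians -0.09 and -0.10), no fewer than with miR-17. PABPC1, the abundant poly(A)-binding protein, had 2557.8, 2392.9 and 2467.6 TPM.

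A list of 36 textbook targets of the miR-17 family that contains none of the 7 genes gives a scale for them. Of 34 tested, 30 were lower with native miR-17, 5 by at least 2-fold, and 32 with the methylated strand, 7 by at least 2-fold. With native and methylated let-7a 22 and 26 were lower, with medians of -0.10 and -0.07. With miR-17 the medians were -0.56 and -0.69, less than the smallest decrease among the 7. The 7 were chosen for low values in these same libraries, so this gap largely restates the choice. CDKN1A had 430.8 TPM in the control, 187.6 with native and 190.7 with methylated miR-17. The zinc finger repressor ZBTB7A had 40.4, 17.9 and 17.1 TPM, the helicase ZNFX1 44.2, 20.3 and 19 TPM, and the amyloid precursor APP 484.9, 267.2 and 235.3 TPM. A list of let-7 targets, 17 tested, had medians of -0.43 and -0.29 with the native and methylated let-7a strands and of -0.19 and -0.31 with the miR-17 strands. Of these 17, 11 hold a match to miR-17, with medians of -0.21 and -0.46 with the miR-17 strands. The 6 without one had -0.08 and -0.14. The most abundant let-7 targets were HMGA1 (2194.1 TPM in the control, 2236.7 and 2196.3 with miR-17) and MYC (283.4, 238.0 and 232.9 TPM). The list medians stand beside 0.02 and -0.06 over all genes tested with native and methylated miR-17. With native and methylated let-7a the medians over all genes tested were 0.00 and -0.04.

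**Figure D4:**
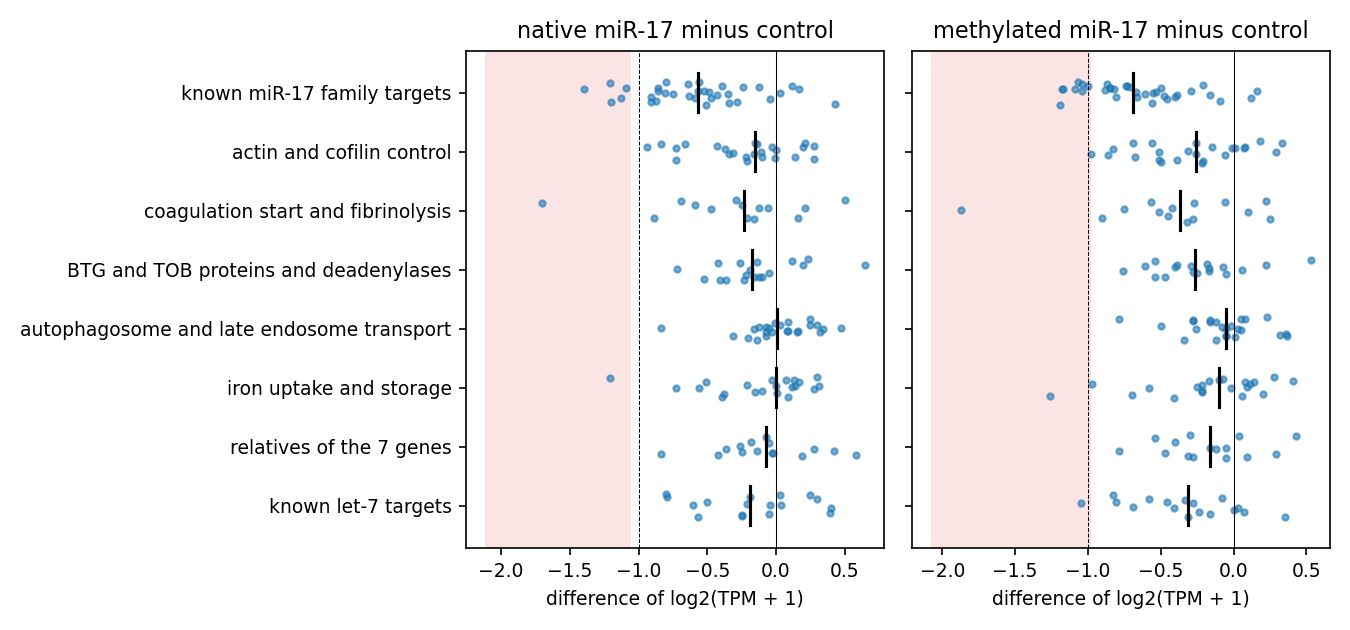
Differences of log2(TPM + 1) against the control for the tested genes of each list, without the 7 genes themselves, with native (left) and methylated (right) miR-17. Points are genes, black bars are list medians, the dashed line is 2-fold lower, and the shaded band is the range of the 7 genes (-2.12 to -1.06 and -2.08 to -0.98). Few list genes enter it. Most of these are on the miR-17 target list, such as CDKN1A, ZBTB7A and ZNFX1, and SLC40A1 is on the iron list.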

How the data were processed

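Total RNA from 5 transfected cell cultures was isolated using Isogen, and stranded libraries were built after removal of ribosomal RNA, per the labels' protocols. The authors deposited 1 table of TPM values, which the submitters' processing notes tie to build hg19. How reads were aligned and counted is not given in the sources used here. TPM keeps no depth, so no count model, interval or floor was used, and a change in abundant genes shifts all others. Each column was taken to its library by the sample title. Differences of log2(TPM + 1) were computed with Python 3.11.15 and pandas 2.3.3 for 7 comparisons over the 14177 genes averaging 1 TPM or more. The code was checked on simulated data. Seed matches were searched in all 3′ UTRs of protein-coding transcripts in GENCODE release 29 (GRCh38), joined by gene identifier. The table has no coordinates. The 7 genes, the 8 lists and the other choices were made with earlier results of these data known. Genes named are the 7, the list genes at least 2-fold lower in both miR-17 libraries, the 2 most abundant of each list, all relatives, and the nearest and most decreased non-members. Outside this rule, CFL2, SSH1, SSH2, TFPI, DICER1 and the cell type markers were named as well. CACT, the spacing and the flanks were examined after the data were seen. Other pseudocounts, filters, scalings, references and match rules were tried. With 1 library per group, no replicate could be left out. One gene that the naming rule picks is not reported here.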

Additional observations from a re-analysis of the deposited data

How the results depend on the processing

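The 49 differences of the 7 genes (7 comparisons each) were recomputed with pseudocounts of 0.1 and 5 and with rescaled libraries, and 147 of 147 moved by less than 1.5-fold. With a pseudocount of 5, at least 2-fold lower were 6 of 7 with native and 5 of 7 with methylated miR-17 against the control, and 5 and 4 against the let-7a libraries. Measured against the mean of the let-7a libraries the counts were 7 and 6. The share of all genes past 2-fold depends on the pseudocount and on the filter: with native miR-17 against the control 388 genes were lower with a pseudocount of 0.1, 242 with 1, 83 with 5, and 144 among genes averaging 5 TPM or more, and with methylated miR-17 544, 335, 101 and 189. In the same order the counts were 296, 167, 42 and 61 for native let-7a and 243, 139, 21 and 33 for methylated let-7a against the control, 333, 202, 69 and 102 for native miR-17 against native let-7a, and 443, 250, 64 and 122 for methylated miR-17 against methylated let-7a. Without the filter native let-7a gave 285, methylated let-7a 257, and native miR-17 against native let-7a 317. In the longest 3′ UTR alone 7 of 7 genes had a match. Of the 8 nearest genes, 6 were also nearest among genes averaging 20 TPM or more. No paired analysis was possible because each group holds 1 library. Unknown depth limits every value, most of all that of PRR15, the lowest with native miR-17.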
